A study of Homo sapiens with 6 samples.

Results

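Kallikreins, other secreted or membrane-bound serine proteases and the Kazal-type inhibitors that restrain some of them were followed across 6 RNA sequencing libraries of SW480, an established human line grown from a colon adenocarcinoma. The members are the protein-coding genes whose symbol begins with KLK, SPINK, TMPRSS or PRSS and a digit, with ST14 and HPN added, and they number 70 of the 58735 genes in the deposited table. They comprise 15 KLK genes, 17 genes of the TMPRSS group (15 TMPRSS genes, ST14 and HPN), 28 PRSS genes and 10 SPINK genes, with PRSS50 present under 2 identifiers. Of the 6 libraries, 3 carry the genotype label DDX39B overexpression, and the other 3 are titled as control and labelled WT. DDX39B encodes an RNA helicase of mRNA splicing and export. All 6 cultures were grown in Leibovitz's L-15 medium with 10% FBS without added CO2, and how DDX39B was overexpressed, in what number of clones or cultures, is not given in the sources used here, so p-values measure the spread between these libraries, which may be technical.

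Serine proteases of these families are mostly made as inactive zymogens and become active when their chain is cut. Kallikreins are secreted and can activate each other in cascades. Matriptase (ST14), hepsin (HPN) and the TMPRSS proteins are anchored in the cell membrane and cut proteins at the cell surface. SPINK proteins carry Kazal domains that block such proteases: the product of SPINK5, known as LEKTI, inhibits several kallikreins in skin, and SPINK1 blocks trypsin in the pancreas.

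Expression was deposited as FPKM, reads scaled for gene length and a size factor per library, and the values could be turned back into read numbers. The size factor was not the sum of reads. It was 1.04 to 1.05 times that sum under the overexpression label and 0.958 to 0.995 times under the control label, which bears on small changes. A library held 16980763 to 17170008 reads under the overexpression label and 16963075 to 17463697 under the control label. DDX39B itself went against the labels. It measured 14.3 ± 0.623 FPKM in libraries labelled overexpression and 38.6 ± 3.68 FPKM in those labelled control (SD, n = 3 each), so every direction here is that of the labels as given. Exchanged labels, the overexpression and a difference between the cells of the groups cannot be told apart in these data. The groups differed in most genes: of the 13972 genes that averaged 1 FPKM or more, 76.8% passed an adjusted p of 0.05 with limma on log2(FPKM + 1), 37.5% higher and 39.3% lower under the overexpression label. Several markers of a colorectal epithelium differed between the groups. The summed level of 9 such markers was 1478 to 1496 FPKM in libraries labelled overexpression and 357.5 to 430.2 FPKM in those labelled control. Most of it was from KRT8 and KRT18. EPCAM averaged 171 FPKM under the overexpression label and 2.72 FPKM under the control label. CDH1 was 38.7-fold and VIL1 22.9-fold higher under the overexpression label. CDX2 and GPA33 had 18 or more reads under the overexpression label and 0 under the control label. KRT20, a keratin of colon epithelium, went the other way, with 6 reads under the overexpression label and 80 under the control label (limma-voom adjusted p = 0.0012), and CDH17 did not pass (limma-voom adjusted p = 0.0537). The part of these markers in the results was not tested.

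Most members were silent or nearly so in both groups. Of the 70, 15 had 0 reads in all 6 libraries, among them PRSS1, the gene of cationic trypsinogen, and all 5 TMPRSS11 genes. Another 22 had 1 to 29 reads in all. In a gene of 1 kilobase 3 reads correspond to 0.166 to 0.184 FPKM, and lower levels could not be told from 0 at this depth. Only 18 members reached a mean of 1 FPKM and entered the main test. All 18 passed it, 11 higher and 7 lower under the overexpression label, where 76.8% of all tested genes passed, and in all 18 the groups did not overlap, as in 80.1% of all tested genes. A member that reached the mean through 1 group alone had to differ, so these counts describe the members and do not set them apart. The number called depended on the filter: 23 of 55 members were higher without one, where 24% of all genes were, 3 of 9 at a mean of 5 FPKM or more, where 35.7% were, and 17 of 28 on TPM, where 35.8% were. Lower were 10 of 55 members without a filter (6950 of 33913 genes), 6 of 9 at 5 FPKM (3434 of 7796 genes) and 9 of 28 on TPM (6505 of 18899 genes). The median log2 fold change of the 18 was 1.73, against -0.03 over all genes tested. Its direction depended on the filter, since at 5 FPKM more members were lower than higher.

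**Figure D1:**
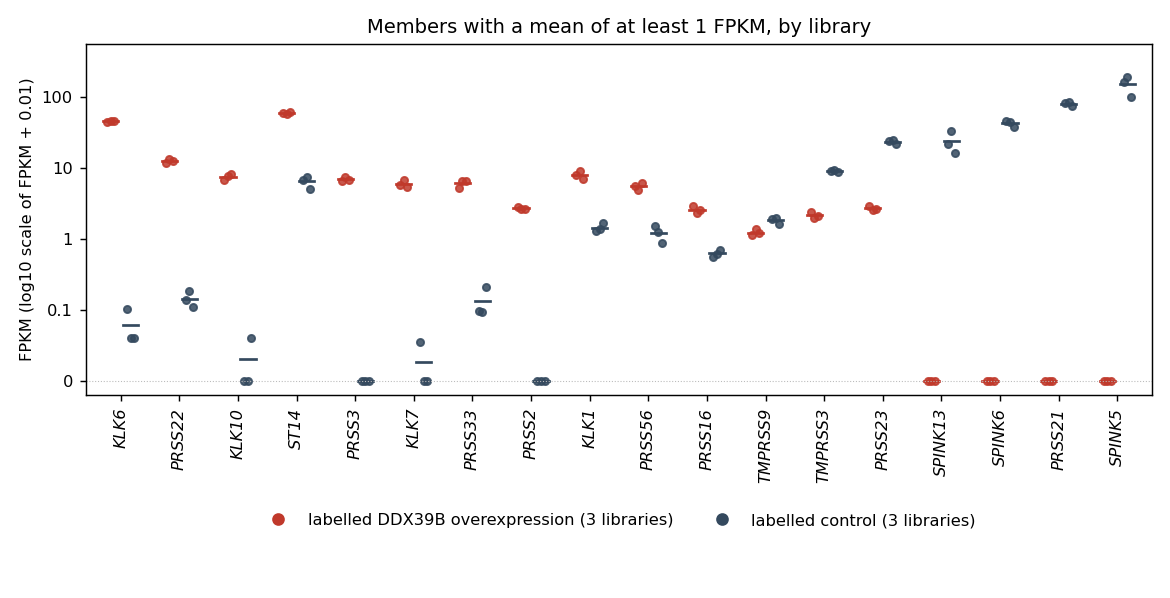
FPKM of the 18 members that averaged 1 FPKM or more, on a log10 scale of FPKM + 0.01, with 3 points and a mean line per group, overexpression-labelled libraries left of control-labelled ones, ordered by log2 fold change. From KLK6 to PRSS16 the overexpression-labelled points lie above the control-labelled ones, and from TMPRSS9 to SPINK5 they lie below, with 4 genes at 0 under the overexpression label.

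Summed per library, the families differed between the groups. The 15 KLK genes together measured 69.1 ± 1.92 FPKM in libraries labelled overexpression and 1.86 ± 0.410 FPKM in those labelled control (SD, n = 3 each). The 17 genes of the TMPRSS group summed to 67.6 ± 1.53 FPKM under the overexpression label, against 17.9 ± 1.77 FPKM under the control label. This group is not all membrane-bound proteases: PRSS21, whose product is also tethered to the membrane, is counted with the PRSS genes. The PRSS genes summed to less, with 41.0 ± 1.39 FPKM under the overexpression label and 109 ± 8.43 FPKM under the control label. The 10 inhibitors summed to 0.372, 0 and 0 FPKM in libraries labelled overexpression, which rested on 5 reads in all, and to 234, 271 and 157 FPKM in those labelled control. Each sum was carried by few genes. KLK6 made up 65.9% and ST14 88.6% of their family's sum under the overexpression label, and SPINK5 made up 69.2% and PRSS21 74.2% of theirs under the control label. For 2 families the direction rested on that gene. Without PRSS21 the PRSS sum was 41.0 ± 1.39 FPKM under the overexpression label and 28.2 ± 2.33 FPKM under the control label. Without ST14 the sum of the TMPRSS group was 7.69 ± 0.438 FPKM under the overexpression label and 11.5 ± 0.488 FPKM under the control label (SD, n = 3 each). The KLK sum stayed higher without KLK6 and the SPINK sum lower without SPINK5. These sums without a gene were added after the data were seen. In bulk RNA a lower level can come from fewer expressing cells or from less RNA per cell, and these cannot be told apart.

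**Figure D2:**
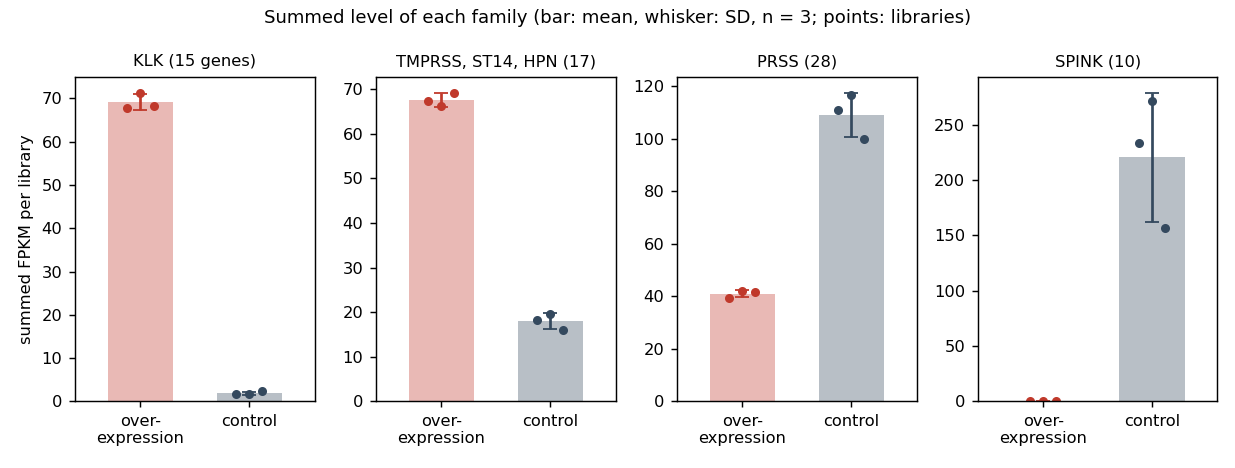
Summed FPKM of each family per library, with bars at the mean, whiskers for the SD of 3 libraries and points for libraries, overexpression label left of control label; each panel has its own axis from 0. The sums of KLK and of the TMPRSS group (with ST14 and HPN) are higher under the overexpression label, and the PRSS and SPINK sums are higher under the control label. Without ST14 the sum of the TMPRSS group and without PRSS21 the PRSS sum turn round.

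The inhibitors gave the widest gap. SPINK5 (ENSG00000133710, chromosome 5, 148025683 to 148137289, plus strand, GRCh38) had 0 reads in each of the 3 libraries labelled overexpression, against 164, 192 and 102 FPKM in those labelled control. SPINK6 (chromosome 5, 148202794 to 148215137), whose product inhibits kallikreins in skin, was likewise at 0 in libraries labelled overexpression and at 46.6, 44.6 and 37.6 FPKM in those labelled control. SPINK13 (chromosome 5, 148268180 to 148286254) had 0 reads under the overexpression label, against 22.1, 33.7 and 16.3 FPKM under the control label. None of the 3 overlapped between groups, and the control-labelled libraries varied among themselves by up to 2.07-fold for SPINK13 and 1.89-fold for SPINK5.

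Against a floor of 3 reads over a group, SPINK5 was at least 11938-fold, SPINK6 at least 562-fold and SPINK13 at least 503-fold lower under the overexpression label. The log2 fold changes on the FPKM + 1 scale were -7.21 (SE 0.22, limma adjusted p = 3.96e-07) for SPINK5, -5.45 (SE 0.088, limma adjusted p = 3.37e-08) for SPINK6 and -4.59 (SE 0.23, limma adjusted p = 3.88e-06) for SPINK13. SPINK13 overlaps an antisense gene over 17948 bases, AC091948.1, which had 5 reads under the overexpression label and 1396 under the control label. The library kit and the counting are not stated to keep the strand, so reads of that pair cannot be told apart with certainty. SPINK1, the trypsin inhibitor, was scarce: it had 1 read in libraries labelled overexpression and 17, 6 and 26 reads in those labelled control, a 52.6-fold lower level with a 95% counting interval of 9.01 to 2119. Its limma-voom adjusted p, from the reads of all genes with at least 30 reads, was 8.18e-04. The remaining 6 SPINK genes had at most 10 reads in a group.

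SPINK5, SPINK14, SPINK6, SPINK13, SPINK7 and SPINK9 stand in this order within 314 kb of chromosome 5. Under the control label SPINK7 had 10 reads and SPINK9 had 2, and none of the 6 had a read under the overexpression label. The single other protein-coding gene within that stretch that could be tested, MARCOL, was also at 0 under the overexpression label, against 54.1 ± 29.9 FPKM under the control label (SD, n = 3; limma adjusted p = 1.49e-05). The nearest tested protein-coding gene above it, FBXO38 at 44.1 kb, measured 5.21 ± 0.227 FPKM in libraries labelled overexpression and 3.98 ± 0.232 FPKM in those labelled control (limma adjusted p = 3.47e-03). The nearest one below, PPP2R2B at 941 kb, had 2 reads under the overexpression label and 1664 under the control label, and was lower (limma adjusted p = 2.42e-05).

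The start regions of the 3 expressed neighbours are shown because these genes were at 0 together. They are 300 bases from RefSeq (GRCh38.p14), 250 before and 50 after the annotated start, read 5′ to 3′ on the gene's strand. Where RefSeq lists several starts, the one nearest to the gene start of the table is printed, here and for the genes below. Capitals mark matches on either strand to 4 motifs, which may overlap: the TATA box TATAAA, the GC box GGGCGG, the CCAAT box CCAAT and the AP-1 element TGANTCA.
SPINK5 (chr5:148063730-148064029, plus strand): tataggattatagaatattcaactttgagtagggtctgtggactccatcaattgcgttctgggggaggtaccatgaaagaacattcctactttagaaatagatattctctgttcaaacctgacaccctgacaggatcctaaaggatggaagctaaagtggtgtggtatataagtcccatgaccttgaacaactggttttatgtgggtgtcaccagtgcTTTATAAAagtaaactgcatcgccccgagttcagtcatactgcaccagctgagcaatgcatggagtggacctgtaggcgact
SPINK6 (chr5:148202528-148202827, plus strand): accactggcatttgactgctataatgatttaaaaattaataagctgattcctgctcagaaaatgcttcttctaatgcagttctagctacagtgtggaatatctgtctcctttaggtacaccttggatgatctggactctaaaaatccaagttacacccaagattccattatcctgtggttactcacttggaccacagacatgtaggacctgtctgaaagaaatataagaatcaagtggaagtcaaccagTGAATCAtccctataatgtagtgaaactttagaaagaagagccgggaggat
SPINK13 (chr5:148268544-148268843, plus strand): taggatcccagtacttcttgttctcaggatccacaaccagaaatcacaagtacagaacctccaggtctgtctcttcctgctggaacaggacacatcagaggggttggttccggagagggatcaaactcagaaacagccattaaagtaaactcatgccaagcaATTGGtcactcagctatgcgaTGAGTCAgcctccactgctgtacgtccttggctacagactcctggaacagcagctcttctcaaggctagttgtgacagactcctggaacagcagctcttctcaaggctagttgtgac
Among 35116 RefSeq start regions of the same length, 11.5% held the TATA box, 45% the GC box, 34.6% the CCAAT box and 7.71% the AP-1 element. SPINK5 held 2 overlapping matches to the TATA box, SPINK6 and SPINK13 each held a match to the AP-1 element, and SPINK13 also held a CCAAT box. A second listed start of SPINK6 held no AP-1 element and 2 CCAAT boxes. None of the 3 held a GC box, and they had 4, 1 and 3 CG dinucleotides, where the median start region had 14. For SPINK5 the RefSeq start lies 38297 bases inside the gene model of the table, and which start was in use cannot be read from values per gene. A match is a description of letters and says nothing of binding.

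Of the 15 kallikreins, 4 reached 1 FPKM, and all 4 were higher under the overexpression label, where 37.5% of all genes were. KLK6 (ENSG00000167755, chromosome 19, 50958631 to 50969673, minus strand), a secreted trypsin-like kallikrein, measured 45.3, 46.0 and 45.4 FPKM in libraries labelled overexpression and 0.0931, 0.0300 and 0.0302 FPKM in those labelled control. These values rest on 4826 reads under the overexpression label and 5 under the control label. It was 892-fold higher; on the FPKM + 1 scale its log2 change was 5.47 (SE 0.055, limma adjusted p = 8.87e-09). The 3 libraries of the overexpression label lay close together and far above the others. An antisense gene, AC011483.1, which overlaps KLK6, KLK7 and KLK8, had 62 reads under the overexpression label and 0 under the control label.

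KLK10 (chromosome 19, 51012739 to 51020175) measured 6.84, 7.63 and 8.35 FPKM under the overexpression label, against 0, 0 and 0.0310 FPKM under the control label, where it had 2 reads. The ratio was 732, with a 95% counting interval of 202 to 6049 (limma adjusted p = 2.54e-07). KLK7 (chromosome 19, 50976482 to 50984099), a chymotrypsin-like kallikrein of skin shedding that LEKTI inhibits, measured 5.82, 6.71 and 5.36 FPKM in libraries labelled overexpression, against 0.0252, 0 and 0 FPKM in those labelled control. Its ratio of 725 rested on a single control-labelled read (95% counting interval 130 to 28671; limma adjusted p = 5.19e-07). These 2 genes were thus read almost only under the overexpression label. KLK1 (chromosome 19, 50819148 to 50823787), tissue kallikrein, which releases kinins from kininogen, was present in both groups. It measured 7.87, 9.20 and 7.04 FPKM under the overexpression label and 1.29, 1.37 and 1.66 FPKM under the control label, and was 5.58-fold higher (log2 fold change 1.88, SE 0.11, limma adjusted p = 6.51e-06).

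The other 11 kallikreins stayed under 1 FPKM. Those with at least 30 reads were tested with limma-voom on the reads, an alternative added after the data were seen, in which 74.7% of 19250 genes passed. KLK3, the gene of prostate-specific antigen, had 24, 25 and 38 reads in libraries labelled overexpression and 0 in those labelled control (adjusted p = 4.74e-06). KLK8 had 49 reads under the overexpression label and 0 under the control label (adjusted p = 9.56e-06), although it shares 34.1% of its 50-base words with AC011473.4, an overlapping gene on the same strand that had 0 reads. KLK11 had 35 under the overexpression label and 2 under the control label (adjusted p = 3.39e-04). KLK14 was nearest to level, with 37 reads under the overexpression label and 13 under the control label (log2 fold change 1.40, SE 0.41, adjusted p = 0.0118). All 8 kallikreins with at least 30 reads were higher under the overexpression label, where 39.3% of all genes so tested were higher. KLK3, KLK6, KLK7, KLK8, KLK10, KLK11 and KLK14 reached 30 reads through the overexpression label alone, so the filter set their direction. The count therefore describes these genes and does not set kallikreins apart. KLK15 had 18 reads under the overexpression label and 0 under the control label, too few for this test. KLK5, the kallikrein that starts the skin cascade, had 4 reads under the overexpression label and 3 under the control label, and KLK4 had 0 under the overexpression label and 6 under the control label.

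All 15 kallikreins lie within 265 kb of chromosome 19, and levels along it were uneven. KLK6 stood next to KLK5, which was at 0.0452 ± 0.0195 FPKM in libraries labelled overexpression and 0.0365 ± 0.0362 FPKM in those labelled control (SD, n = 3 each). KLK9, between KLK8 and KLK10, had 1 read under the overexpression label and 0 under the control label. The nearest tested genes outside the stretch showed far smaller differences. C19orf48 was 1.42-fold higher under the overexpression label (limma adjusted p = 2.02e-04), and CTU1 measured 8.50 ± 1.11 FPKM in libraries labelled overexpression and 10.2 ± 1.52 FPKM in those labelled control (limma adjusted p = 0.141).

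**Figure D3:**
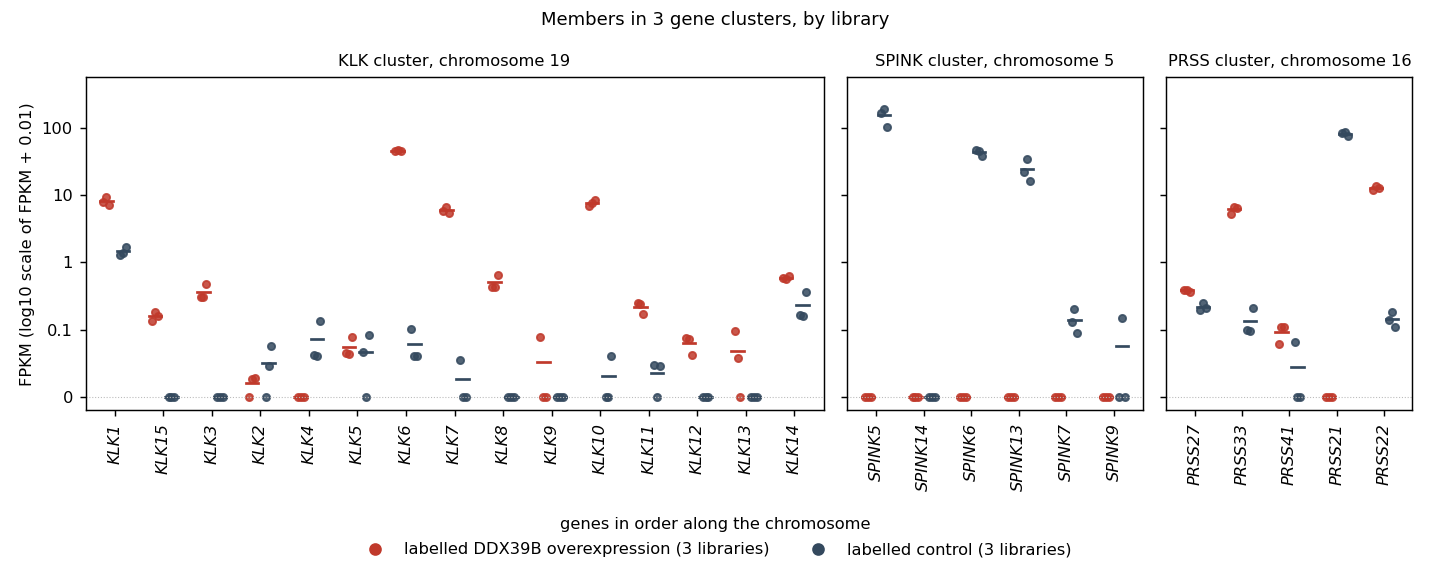
FPKM per library, on a log10 scale of FPKM + 0.01, of the members in 3 gene clusters in their order along the chromosome, overexpression-labelled points left of control-labelled ones, with lines at the means. KLK6, KLK7 and KLK10 stand out under the overexpression label, the SPINK genes are at 0 under it, and PRSS21 lies below its control-labelled values between PRSS33 and PRSS22, which lie above theirs.

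The start regions of the 3 kallikreins that were almost absent under the control label follow, marked as above.
KLK6 (chr19:50969542-50969841, minus strand): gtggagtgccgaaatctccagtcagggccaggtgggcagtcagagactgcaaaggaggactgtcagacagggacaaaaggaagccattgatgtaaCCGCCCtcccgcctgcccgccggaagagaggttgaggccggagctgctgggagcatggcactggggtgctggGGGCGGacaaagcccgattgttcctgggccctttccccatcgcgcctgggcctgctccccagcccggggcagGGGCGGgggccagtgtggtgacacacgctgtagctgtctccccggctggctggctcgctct
KLK7 (chr19:50984015-50984314, minus strand): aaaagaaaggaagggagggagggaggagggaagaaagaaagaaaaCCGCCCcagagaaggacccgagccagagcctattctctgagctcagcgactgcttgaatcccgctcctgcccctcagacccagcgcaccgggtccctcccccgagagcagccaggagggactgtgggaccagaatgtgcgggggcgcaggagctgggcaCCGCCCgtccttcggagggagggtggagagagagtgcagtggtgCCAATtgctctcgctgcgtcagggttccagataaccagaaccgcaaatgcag
KLK10 (chr19:51019812-51020111, minus strand): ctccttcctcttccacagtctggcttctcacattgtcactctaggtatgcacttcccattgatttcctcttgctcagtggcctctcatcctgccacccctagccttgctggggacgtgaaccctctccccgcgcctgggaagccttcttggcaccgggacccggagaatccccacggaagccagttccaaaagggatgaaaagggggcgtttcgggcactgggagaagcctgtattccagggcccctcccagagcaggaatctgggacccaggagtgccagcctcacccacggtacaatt
KLK6 held 3 and KLK7 2 matches to the GC box, KLK7 also held a CCAAT box, and KLK10 held none of the 4 motifs. RefSeq lists 2 further starts for KLK7, with 1 and 2 GC boxes, and 1 for KLK10, with none of the motifs. The printed regions of KLK6, KLK7 and KLK10 had 15, 15 and 9 CG dinucleotides, against 4, 1 and 3 in the SPINK start regions shown above. With 3 genes in each set this is a description of these regions only. Among members with at least 100 reads in a group, the start regions of 12 higher ones held 2 to 21 (median 8). Those of 9 lower ones held 1 to 35 (median 4), so the ranges overlapped.

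In the TMPRSS group, ST14 was the most abundant member under the overexpression label. ST14 (ENSG00000149418, chromosome 11, 130159562 to 130210376, plus strand), the gene of matriptase, an epithelial protease that activates other zymogens, measured 59.4, 58.2 and 62.1 FPKM in libraries labelled overexpression and 6.80, 7.59 and 5.07 FPKM in those labelled control. It was 9.23-fold higher, and its log2 change was 3.04 (SE 0.13, limma adjusted p = 1.50e-06). The groups did not overlap, and every library had reads of it. TMPRSS2 (chromosome 21, 41464551 to 41531116), a protease of prostate and gut that primes viral spike proteins, measured 1.13, 1.23 and 1.04 FPKM under the overexpression label, with 0 reads under the control label. From 372 reads it was at least 116-fold higher (limma-voom adjusted p = 2.93e-07), and its mean over the 6 libraries was too low for the main test.

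HPN, the gene of hepsin, had 276 reads in libraries labelled overexpression and 11 in those labelled control and was 23.2-fold higher (limma-voom adjusted p = 9.77e-06). TMPRSS5 (3.76-fold, adjusted p = 2.47e-04), TMPRSS6, which in liver restrains hepcidin (3.42-fold, adjusted p = 2.18e-03), and TMPRSS4 (4.73-fold, adjusted p = 0.0160) were also higher with limma-voom. Of the 3 genes of this group that reached 1 FPKM, ST14 was higher and TMPRSS3 and TMPRSS9 were lower. TMPRSS3, known from inherited deafness, measured 2.15 ± 0.209 FPKM in libraries labelled overexpression and 9.14 ± 0.330 FPKM in those labelled control (SD, n = 3 each), 4.25-fold lower (limma adjusted p = 1.53e-06). TMPRSS9 measured 1.22 ± 0.118 FPKM under the overexpression label, against 1.82 ± 0.178 FPKM under the control label, the smallest change among the 18 tested members (log2 fold change -0.34, SE 0.085, limma adjusted p = 8.91e-03). TMPRSS9 overlaps TIMM13 on the other strand, a gene with 4036 reads under the overexpression label and 3300 under the control label.

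The PRSS genes moved in both directions, 6 higher and 2 lower among 8 tested, where 37.5% and 39.3% of all genes were. PRSS21 (ENSG00000007038, chromosome 16, 2817180 to 2826304, plus strand), which encodes testisin, a protease tethered to the membrane and known from testis, had 0 reads under the overexpression label and measured 82.2, 86.4 and 74.3 FPKM under the control label. It was at least 2843-fold lower. Its log2 fold change on the FPKM + 1 scale was -6.35 (SE 0.068, limma adjusted p = 9.96e-09). PRSS23 (chromosome 11, 86791059 to 86952910), a secreted protease gene, measured 2.88, 2.60 and 2.67 FPKM under the overexpression label and 24.2, 25.3 and 21.6 FPKM under the control label, so it was read in all 6 libraries and was 8.73-fold lower (limma adjusted p = 2.31e-07). It overlaps FZD4 on the other strand, which had 255 reads under the overexpression label and 132 under the control label. PRSS12, the gene of neurotrypsin, had 24 reads under the overexpression label, against 332 under the control label, and was 14.8-fold lower (limma-voom adjusted p = 1.02e-05).

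PRSS21 has PRSS neighbours that went the other way, PRSS22 and PRSS33. PRSS22 (chromosome 16, 2852727 to 2858170), which encodes a tryptase of epithelia, measured 11.97, 13.5 and 12.5 FPKM in libraries labelled overexpression and 0.129, 0.174 and 0.1001 FPKM in those labelled control, 94.3-fold higher (limma adjusted p = 6.59e-08). PRSS33 (chromosome 16, 2783953 to 2787948), which encodes a protease known from eosinophils, measured 5.26, 6.58 and 6.49 FPKM under the overexpression label, against 0.0871, 0.0842 and 0.198 FPKM under the control label, and was 49.6-fold higher (limma adjusted p = 1.01e-06). Both had reads in every library, with 16 for PRSS22 and 13 for PRSS33 under the control label. PRSS27 also belongs to this stretch of 146 kb and had 118 reads in libraries labelled overexpression and 62 in those labelled control (1.78-fold higher, limma-voom adjusted p = 9.26e-03). Other genes there were lower to a far smaller degree than PRSS21, where 39.3% of all tested genes were lower. Inside the stretch SRRM2 was 2.87-fold lower (limma adjusted p = 1.06e-06). ELOB was 1.16-fold lower (limma adjusted p = 0.0442), with 7041 reads under the overexpression label and 7630 under the control label. FLYWCH2, the nearest tested gene above the stretch, was 4.73-fold lower (limma adjusted p = 2.99e-07). KCTD5, the nearest below, did not pass (limma adjusted p = 0.456). The genes PRSS53, PRSS8 and PRSS36, which lie together elsewhere on chromosome 16, did not pass with limma-voom. PRSS8, the gene of prostasin, a partner of matriptase in epithelia, had 18 reads in each group (log2 fold change -0.04, SE 0.46, adjusted p = 0.946).

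The trypsinogen genes PRSS2 and PRSS3 were read only under the overexpression label. PRSS3 (chromosome 9, 33750466 to 33799231), the gene of mesotrypsin, measured 6.61, 7.49 and 6.86 FPKM in libraries labelled overexpression and had 0 reads in those labelled control, and it was at least 193-fold higher (log2 fold change 3.00, SE 0.072, limma adjusted p = 1.46e-07). PRSS2 (chromosome 7, 142760398 to 142774564), the gene of anionic trypsinogen, measured 2.84, 2.68 and 2.62 FPKM under the overexpression label, also with 0 reads under the control label, and was at least 56.9-fold higher (limma adjusted p = 1.18e-06). Trypsinogen genes are close copies, so reads could be divided wrongly among them. Of the 50-base words of PRSS2 transcripts, 6.48% also occur in PRSS1, and PRSS1 had 0 reads. Markers of pancreatic acinar cells, the usual source of trypsinogen, were near 0. Their summed level over 7 genes was 0.0630 to 0.277 FPKM in libraries labelled overexpression and 0.147 to 0.598 FPKM in those labelled control, with CELA3A, PNLIP and AMY2A at 0 reads throughout.

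The start regions of both trypsinogen genes are shown because the genes lie on different chromosomes and were read in the same libraries.
PRSS2 (chr7:142770720-142771019, plus strand): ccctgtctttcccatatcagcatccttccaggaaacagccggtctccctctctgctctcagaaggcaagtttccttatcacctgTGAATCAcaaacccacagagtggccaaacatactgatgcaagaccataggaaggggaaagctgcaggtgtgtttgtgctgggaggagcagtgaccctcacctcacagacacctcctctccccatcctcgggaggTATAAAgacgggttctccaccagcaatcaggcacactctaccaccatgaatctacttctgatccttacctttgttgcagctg
PRSS3 (chr9:33795311-33795610, plus strand): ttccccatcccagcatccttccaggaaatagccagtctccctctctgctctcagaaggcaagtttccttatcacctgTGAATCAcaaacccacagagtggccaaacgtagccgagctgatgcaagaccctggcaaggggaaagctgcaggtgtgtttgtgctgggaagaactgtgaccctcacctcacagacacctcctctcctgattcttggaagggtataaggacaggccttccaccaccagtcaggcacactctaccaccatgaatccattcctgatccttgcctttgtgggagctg
In a global alignment 263 of 293 aligned bases (89.8%) were identical. Both held an AP-1 element, and PRSS2 also held a TATA box. These RefSeq starts lie 10572 bases for PRSS2 and 45095 bases for PRSS3 inside the gene models of the table, so other starts could have given the reads.

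The remaining tested PRSS genes were present in both groups. PRSS56, which encodes a protease of the eye, measured 5.56 ± 0.625 FPKM in libraries labelled overexpression and 1.21 ± 0.321 FPKM in those labelled control (4.59-fold higher, limma adjusted p = 3.66e-05). PRSS16, a thymus protease gene, measured 2.60 ± 0.276 FPKM under the overexpression label, against 0.621 ± 0.0732 FPKM under the control label (SD, n = 3 each; 4.18-fold higher, limma adjusted p = 2.71e-05). The other 20 PRSS entries stayed under a mean of 1 FPKM over the 6 libraries, and 7 of them had 0 reads.

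**Figure D4:**
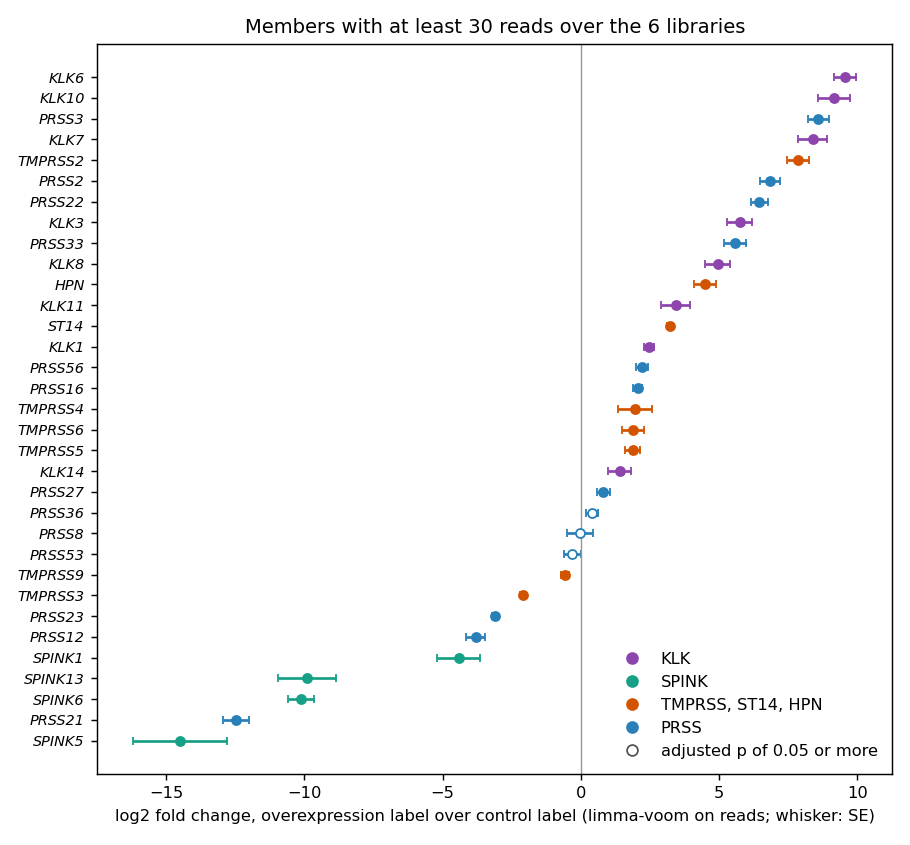
Log2 fold change of the overexpression label over the control label, with its SE, for the 33 members with at least 30 reads over the 6 libraries (limma-voom on reads), coloured by family; open points did not pass. The 8 KLK genes and 6 of the 8 genes of the TMPRSS group (with ST14 and HPN) lie right of 0, and the 4 SPINK genes lie left of it. Of all genes so tested, 39.3% were higher and 35.4% lower. TMPRSS2, HPN, the 4 SPINK genes and most KLK genes reached 30 reads through 1 group alone, so the filter set their side. Values of genes with 0 reads in a group depend on the small count that the method adds.

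On the reads, 21 of the 33 members with at least 30 reads were higher and 9 lower with limma-voom, where 39.3% and 35.4% of all genes were, and PRSS36, PRSS53 and PRSS8 did not pass. A member that reached 30 reads through 1 group alone had to differ. The scale matters for the size of a change: KLK7 had a log2 fold change of 2.78 on FPKM + 1 and of 8.38 (SE 0.51) on reads. Presence in a single group was common. Of 26 members with at least 100 reads in a group, 5 (KLK7, KLK10, TMPRSS2, PRSS2 and PRSS3) had at most 3 reads in the control-labelled group, and 4 (SPINK5, SPINK6, SPINK13 and PRSS21) had at most 3 in the overexpression-labelled group. Of 12823 protein-coding genes with that many reads, 3.07% and 1.57% did so. The members were chosen with earlier results known, so these counts are a description.

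The order of levels changed between the groups. Under the overexpression label ST14 (59.9 ± 1.96 FPKM) stood above KLK6 (45.6 ± 0.355 FPKM) and PRSS22 (12.6 ± 0.761 FPKM), followed by KLK1, KLK10 and PRSS3, whose neighbours in the order did not differ beyond their SD, and by PRSS33 (6.11 ± 0.736 FPKM) and KLK7 (5.96 ± 0.686 FPKM), which did not differ beyond theirs. Under the control label SPINK5 (153 ± 46.4 FPKM) stood above PRSS21 (81.0 ± 6.10 FPKM) and SPINK6 (42.9 ± 4.75 FPKM), then SPINK13 (24.0 ± 8.84 FPKM) and PRSS23 (23.7 ± 1.90 FPKM), which did not differ beyond their SD (n = 3 each). Only 6 members averaged at least 1 FPKM in both groups.

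Genes that act with these proteases were read from a list of 35 inhibitors, receptors, substrates and other proteases. Of 17 tested, 13 were higher and 3 lower under the overexpression label, where 37.5% and 39.3% of all genes were, and their median log2 fold change was 1.42. The list was chosen with earlier results of these data known. A gene such as SPINT2 or SERPINA1, which reached a mean of 1 FPKM through 1 group alone, had to differ. These counts are therefore a description. Inhibitors of matriptase were among the higher ones. SPINT2 measured 80.2 ± 1.87 FPKM in libraries labelled overexpression and 0.619 ± 0.106 FPKM in those labelled control (limma adjusted p = 1.14e-08), and SPINT1 measured 34.5 ± 1.07 FPKM under the overexpression label, against 1.41 ± 0.347 FPKM under the control label (SD, n = 3 each; limma adjusted p = 2.57e-07). SERPINA1, the gene of the serpin alpha-1 antitrypsin, was 801-fold higher.

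Receptors and substrates moved both ways. F2RL1, the gene of the protease-activated receptor PAR2, which trypsin, matriptase and some kallikreins cut, measured 11.8 ± 0.437 FPKM under the overexpression label and 2.77 ± 0.319 FPKM under the control label (limma adjusted p = 2.05e-06). F2R, the gene of the thrombin receptor PAR1, was 7.47-fold lower (limma adjusted p = 3.45e-06). Of the substrates, SCNN1A, a sodium channel subunit, was 20.0-fold, EPCAM 63.0-fold and PLAU, the urokinase gene, 5.82-fold higher, and MET, the receptor of the hepsin and matriptase substrate HGF, was 8.86-fold lower. HGF itself had 0 reads in all 6 libraries. FURIN, a proprotein convertase, measured 30.9 ± 0.852 FPKM in libraries labelled overexpression and 29.3 ± 2.12 FPKM in those labelled control (SD, n = 3 each; limma adjusted p = 0.310).

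Markers of other cell types were measured beside the members, and their part in the results was not tested. Mast cell genes summed to 0 to 0.0732 FPKM over 5 markers in libraries labelled overexpression and 0.0552 to 0.442 FPKM in those labelled control, and the tryptase gene TPSB2 had 0 reads. Of 7 genes of stratified squamous epithelium, where SPINK5 and KLK7 are best known, KRT1, IVL and LOR had 0 reads in all libraries. TP63, a transcription factor of that epithelium, had 2 reads under the overexpression label and 242 under the control label (130-fold lower, 95% counting interval 35.6 to 1078, limma-voom adjusted p = 5.44e-04). The sum of the 7 was 19.6 to 20.6 FPKM under the overexpression label and 32.6 to 40.4 FPKM under the control label, and most of it was KRT10, which averaged 19.6 FPKM under the overexpression label and 35.4 FPKM under the control label. Leukocyte markers summed to 0.731 to 0.998 FPKM under the overexpression label and 0.132 to 0.393 FPKM under the control label, with CD3D and MS4A1 at 0 reads. Fibroblast markers summed to 1.54 to 1.67 FPKM under the overexpression label and 4.20 to 8.14 FPKM under the control label. Most of it was COL1A1, which averaged 1.21 FPKM under the overexpression label and 4.85 FPKM under the control label. DCN and PDGFRB were also lower. LUM went the other way, with 29 reads under the overexpression label and 1 under the control label (limma-voom adjusted p = 5.49e-03), and COL1A2 had 3 reads in each group. Endothelial markers summed to 1.04 to 1.43 FPKM under the overexpression label and 35.9 to 50.5 FPKM under the control label. Most of the control-labelled sum was from ESAM, an adhesion molecule gene. VWF went the other way, with 326 reads under the overexpression label and 24 under the control label (limma-voom adjusted p = 1.56e-05). CDH5 had 0 and 42 reads in that order, and PECAM1 had 1 and 6.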

How the data were processed

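RNA of 6 SW480 libraries, 3 labelled DDX39B overexpression and 3 labelled control, was grouped by title. The authors deposited FPKM per gene and library, a unit taken from the file's title, with values that did not contradict it. Per the submitters' processing notes the build was mm10, a mouse build, whereas the gene identifiers are human, and all 70 members matched GENCODE release 29 (GRCh38) in identifier, start, end and symbol. Aligner, counter and strand setting: not given in the sources used here. FPKM times gene length, divided by the smallest such product in the library, gave whole reads within 0.001 for 100% of the values above 0. No column was left unmapped (0 of them).

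Genes averaging 1 FPKM or more were tested between the groups with limma 3.58.1 (R 4.3.3; trend option, no covariate, two-sided) on log2(FPKM + 1), with Benjamini-Hochberg adjustment over all genes tested and a threshold of 0.05. Such log2 values understate the change of low genes. On the recovered reads of the same genes limma-voom passed 10767. Folds are ratios of mean FPKM, or, with 1 to 3 reads in the lower group, of reads pooled over a group and scaled by the same size factors. With 0 reads in a group they are lower bounds against 3 reads over the group, and with 1 to 3 reads they have an exact 95% counting interval, both for counting error only. Members described per library were the 14 tested ones with the largest log2 fold change in either direction and those with at most 3 reads in a group and at least 100 in the other. Members, partner genes and markers were chosen with earlier results of these data known. No libraries were identical. The steps were tested on simulated reads. A partner gene and a marker list are not reported here. Promoter start regions, matched by symbol for 56 members, came from RefSeq and were read with Biopython 1.88 in Python 3.11.15.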

Additional observations from a re-analysis of the deposited data

How the results depend on the processing

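All 18 tested members kept their direction and their side of the threshold under every alternative in which they were tested. Calls of members moved with the filter: 23 higher of 55 tested without a filter (24% of all genes), 3 higher of 9 at a mean of at least 5 FPKM (35.7% of all genes, with 6218 of 7796 past the threshold), 17 higher of 28 after rescaling to TPM (35.8%), and 21 higher of 33 with limma-voom on genes of at least 30 reads (39.3%), where 5 partner genes were lower, since other genes were tested in each. Members lower numbered 10, 6, 9 and 9 in the same order, where 6950, 3434, 6505 and 6817 of all genes were lower. Leaving out each library in turn gave 9909 to 11099 genes past the threshold, 11 members higher and 7 lower, and 13 to 14 partner genes higher and 3 lower. The replicate number as a block gave 10506 genes, 11 members higher and 7 lower, and 13 partner genes higher and 3 lower. Same-numbered libraries did not deviate together (correlations -0.01, -0.02 and 0.01 for numbers 1 to 3), and the block changed no call of a member. No pairing by number was seen, but whether cultures of a number were handled together cannot be read from these values. FURIN passed under 4 alternatives, among them FPKM recomputed on the sum of reads (0.18, adjusted p = 0.0219). Depth limits all members under about 30 reads.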

Other observations

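In the control-labelled libraries the 7 members that were lower under the overexpression label all had their lowest value in replicate 3, where 36.9% of the 5485 genes lower under that label had theirs (50.6% had it in replicate 2). The ratio of the highest to the lowest control-labelled value was 2.07 for SPINK13 and 1.89 for SPINK5, and 1.07 for TMPRSS3. SPINK1 went the other way, with its highest value, 1.05 FPKM, in replicate 3. Without that replicate all 7 were still lower and past the threshold.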
